A study of Mus musculus with 6 samples.

Results

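Aminoacyl-tRNA synthetases join each amino acid to its tRNA, and their transcripts were examined in YFP+ luminal mammary epithelial cells (MECs). The cells came from mice with floxed or wild-type alleles of Runx1, which encodes a transcription factor. The members are 36 named genes, 20 encoding enzymes of the cytosol, some of them shared with mitochondria, and 16 encoding enzymes of mitochondria alone, whose symbols end in 2. A member was measured where the array annotation gave a probe set to its symbol and no other. This held for 35 of the 36, of 18194 genes measured in all. For Dars, the aspartate enzyme, no such probe set was listed in the annotation used here, and it was not analysed. The 35 members had 72 probe sets, and each gene was read from its brightest one.

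The study sorted luminal MECs (Lin−CD24+CD29lo) from the mammary glands of adult virgin females and measured the RNA of each mouse on 1 Affymetrix Mouse Genome 430 2.0 array. The Runx1-null group held 3 females of genotype MMTV-Cre;Runx1L/L;R26Y and the Runx1-WT group 3 females of genotype MMTV-Cre;Runx1+/+;R26Y, all on a mixed B6/129/FVB background. Runx1L is a floxed allele and R26Y a reporter that makes YFP once Cre has acted. Both genotypes therefore carry the MMTV-Cre transgene, which is expressed from a viral promoter active in mammary epithelium, and the sort selects cells by recombination of the reporter. By qRT-PCR the study reported loss of Runx1 expression in YFP+ MECs of Runx1L/L females. In their YFP+ mature luminal cells expression was only slightly reduced, and the paper proposes that many of these might have kept an unexcised allele. The name Runx1-null therefore follows the genotype and not a measured absence in every cell. The qRT-PCR is not among the values analysed here. Age in weeks was not given in the sources used here. Mice are numbered 1 to 3 within each genotype by the order of their records, and these numbers pair no mice.

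Each synthetase recognizes its own amino acid and tRNA, and the enzymes fall into class I and class II by the fold of the catalytic domain. In the cytosol of animals several of them are held together in a multisynthetase complex by scaffold proteins, while mitochondria import a separate set, encoded in the nucleus, that serves the few proteins made there. Many cytosolic synthetase genes are known targets of ATF4, the transcription factor of the amino acid response, which binds elements that join a C/EBP site to an ATF site.

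That element is shown first because it marks members that recur below. Promoter windows of 300 bases (250 before and 50 after a gene's annotated start, RefSeq, GRCm38.p6) were given for 27 members, 13 cytosolic and 14 mitochondrial, and were searched on both strands for TGATGNAA, the core of the C/EBP-ATF element. It was found in 5 of the 13 cytosolic windows (Gars, Iars, Yars, Aars and Tars), in 0 of the 14 mitochondrial windows and in 3.97% of all 32851 windows of that length. The 5 genes are among 8 with a window on a list of 13 cytosolic synthetases known as ATF4 targets. Of the 5 cytosolic windows off that list 0 held the element. That list came from general knowledge and may rest in part on this element, so the split is not independent support. In the stretches below, written on the strand of the gene, capitals mark the match: it reads TGATGCAA in Yars, and in the other 4 the motif lies on the opposite strand, as TGATGAAA in Gars and as TGATGCAA in Iars, Aars and Tars.
Gars, chr6:55037941-55038000, plus strand: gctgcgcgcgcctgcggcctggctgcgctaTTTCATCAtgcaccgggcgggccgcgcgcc
Iars, chr13:49682126-49682155, plus strand: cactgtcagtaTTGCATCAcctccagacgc
Yars, chr4:129189895-129189924, plus strand: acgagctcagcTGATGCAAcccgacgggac
Aars, chr8:111033700-111033767, plus strand: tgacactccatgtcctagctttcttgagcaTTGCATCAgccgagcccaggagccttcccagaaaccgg
Tars, chr15:11399659-11399703, minus strand: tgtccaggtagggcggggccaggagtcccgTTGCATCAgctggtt
With 1 as the first transcribed base and -1 as the base before it, the match began at -30 in Gars, -15 in Tars, 8 in Iars and 4 in Yars. Aars had 2 matches, at -112 (shown) and 10. For Yars and Aars the start used lies inside the annotated span of the gene. A match describes letters in a window and is neither a binding site nor a cause.

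Other motifs were searched in the same windows. TGTGGT, the core bound by RUNX proteins, was in 1 of 13 cytosolic windows (Dars) and 1 of 14 mitochondrial windows (Yars2), against 16.8% of all windows. Its variant TGCGGT was in 2 cytosolic windows (Eprs and Gars) and 0 mitochondrial windows, against 6.45% of all windows. The palindrome TGACGTCA, a cyclic AMP response element, was in 0 member windows and 1.79% of all. A list of known ATF4 targets that are not synthetases, which also holds Atf4 itself, had 24 genes with a window. Of these, 7 had TGATGNAA (Asns, Atf3, Chac1, Nupr1, Pycr1, Slc7a11 and Trib3).

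The values are linear intensities, normalized across arrays by the authors. Intensities below 19.335, the 20th percentile of all arrays together, were set to it before log2 was taken, and 0 members had a value below it in any mouse. All 35 members passed the filter on dim probe sets and were among 12152 genes tested by limma, as Runx1-null minus Runx1-WT. At an adjusted p under 0.05 limma called 0 genes, 0% of those tested, and 0 synthetases, whose adjusted p all rounded to 1. Before adjustment 234 genes had a p under 0.05, fewer than the 608 that a uniform p would give. Of the 234, 78 were higher in Runx1-null cells (0.642% of genes tested) and 156 lower (1.28%), and 3 of the higher and 0 of the lower were synthetases. The differences below are therefore given as values with their errors, and no synthetase passed the test. With 3 mice against 3 the exact two-sided permutation test cannot go below p = 0.1, which it reaches where the groups do not overlap.

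In Runx1-null cells 16 of the 19 cytosolic synthetases had a log2 difference above 0, with a median of 0.27 and a range from -0.05 to 0.65. Of the 16 mitochondrial synthetases 10 were above 0, with a median of 0.13 and a range from -0.23 to 0.47. Over all genes tested the median was -0.02, and 44.6% were above 0. All 3 Runx1-null mice lay above all 3 Runx1-WT mice for 8 cytosolic and 2 mitochondrial members, which compares with 2.08% of genes tested, and such genes are called apart here. The opposite order was seen for 0 members and for 3.47% of genes tested. After each array was scaled to its median, 4 of the members apart remained so (Aars, Iars, Lars and Yars), against 2.29% of genes apart and higher and 1.17% lower, and 19 of 19 cytosolic members and 64.7% of genes tested were above 0. The difference between the cytosolic and mitochondrial members was not itself tested.

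**Figure D1:**
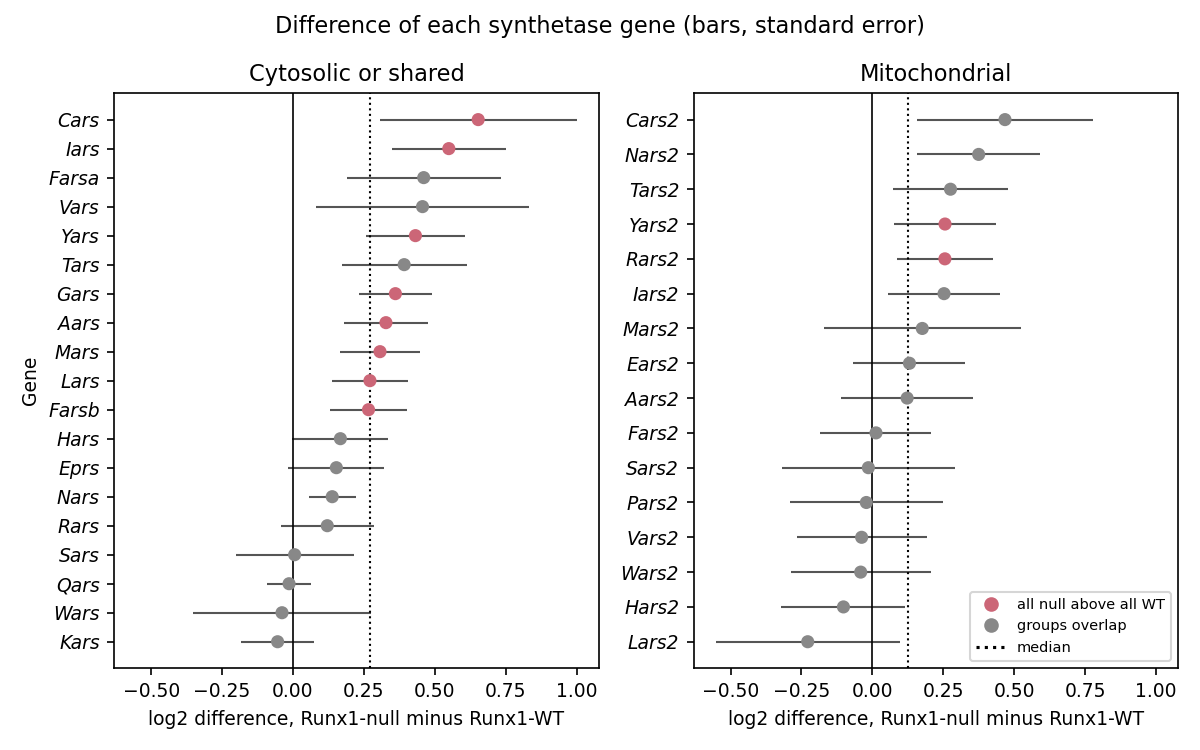
Log2 difference (Runx1-null minus Runx1-WT) of each cytosolic (left) and mitochondrial (right) synthetase gene, with bars of 1 standard error from limma; red points are genes whose Runx1-null mice all lie above all Runx1-WT mice, and dotted lines are the medians, 0.27 and 0.13. The 8 red cytosolic genes lie between 0.27 and 0.65, while Sars, Qars, Wars and Kars lie between -0.05 and 0.01.

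In the plot of differences, 12 cytosolic and 6 mitochondrial members had a difference larger than its standard error. The remaining 17 members had a difference smaller than that error and carry no direction.

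The 3 synthetases at an unadjusted p under 0.05 were the glycine, isoleucine and tyrosine enzymes. Gars, the glycine enzyme, which serves both the cytosol and mitochondria, was at 2781, 2493 and 3235 in the Runx1-WT mice, against 3659, 3799 and 3420 in the Runx1-null mice. The lowest Runx1-null mouse was above the highest Runx1-WT mouse, by a small margin. Its means were 2836 ± 374 (SD, n = 3) and 3626 ± 191 (SD, n = 3), and the log2 difference was 0.36 (standard error 0.13; limma, unadjusted p = 0.0261). Iars, the isoleucine enzyme and a part of the complex, was at 1569, 1416 and 1655 in the Runx1-WT mice, against 2609, 2576 and 1716 in the Runx1-null mice. Runx1-null mouse 3 was only just above the Runx1-WT mice and the other two were far above them. The log2 difference of Iars was 0.55 (standard error 0.20; limma, unadjusted p = 0.0295), and its second probe set gave 0.60. Yars, the tyrosine enzyme, was at 456, 539 and 514 in the Runx1-WT mice, against 646, 726 and 661 in the Runx1-null mice. No Runx1-null mouse came near the Runx1-WT range, and the log2 difference was 0.43 (standard error 0.17; limma, unadjusted p = 0.0432).

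Another 5 cytosolic members were apart between the groups at larger p. Aars, the alanine enzyme, was at 1017, 1000 and 1098 in the Runx1-WT mice, against 1301, 1350 and 1257 in the Runx1-null mice. Its mice were close together within each genotype, with means of 1038 ± 52.2 (SD, n = 3) and 1303 ± 46.7 (SD, n = 3), and the log2 difference was 0.33 (standard error 0.15). A second Aars probe set gave 0.34 and was also apart, and a probe set that Aars shares with Exosc6 was not used. Mars, which charges the initiator as well as the elongator methionine tRNA, was at 2222, 2022 and 2556 in the Runx1-WT mice, against 2574, 3023 and 2795 in the Runx1-null mice. Its groups nearly touched, between Runx1-WT mouse 3 and Runx1-null mouse 1, with a log2 difference of 0.31 (standard error 0.14). Lars, the leucine enzyme, which in human cells is also a leucine sensor for mTORC1, was at 1940, 1676 and 1900 in the Runx1-WT mice, against 2281, 2307 and 2064 in the Runx1-null mice. The spread within each genotype was alike, at 142 and 134 (SD), and the log2 difference was 0.27 (standard error 0.13).

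Cars, the cysteine enzyme, had the widest log2 difference among the members, 0.65, and also one of the widest errors (standard error 0.35). It was the dimmest cytosolic member, at 138, 195 and 188 in the Runx1-WT mice, against 215, 213 and 430 in the Runx1-null mice. Runx1-null mouse 3 was far above the rest, and the other two were only slightly above the highest Runx1-WT mouse. When each mouse was left out in turn, the difference of Cars ran from 0.32, without Runx1-null mouse 3, to 0.83. Its other probe set was below the filter on dim probe sets and gave 0.31.

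The 8 members with the smallest p, shown in the plot of intensities, differed by 1.20-fold (Farsb) to 1.57-fold (Cars) between the genotypes, taking the log2 differences back to ratios.

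**Figure D2:**
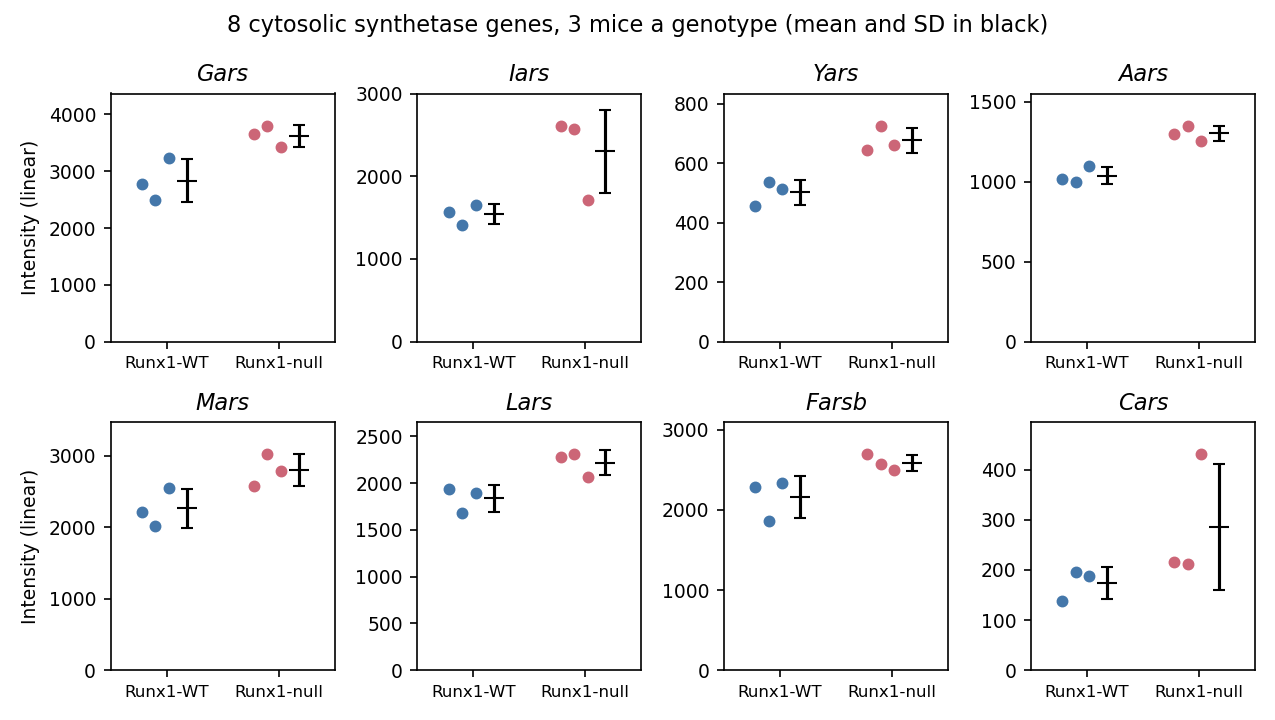
Linear intensity (y axis, from 0, with its own scale for each gene) of the 8 cytosolic synthetases with the smallest unadjusted p, in each Runx1-WT (blue) and Runx1-null (red) mouse, with the mean and SD (n = 3) in black. The groups do not overlap in any of the 8, while Runx1-null mouse 3 is close to the Runx1-WT mice for Iars, at 1716, and far above the others for Cars, at 430.

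The phenylalanine enzyme is built of 2 kinds of subunit, and their probe sets did not move alike. Farsb, the beta subunit, was at 2283, 1867 and 2335 in the Runx1-WT mice, against 2693, 2570 and 2502 in the Runx1-null mice. Its log2 difference was 0.27 (standard error 0.14), and 3 of its 4 probe sets were apart with the Runx1-null mice higher, with differences of 0.25 to 0.35. Farsa, the alpha subunit, was at 462, 365 and 713 in the Runx1-WT mice, against 675, 645 and 720 in the Runx1-null mice. Runx1-WT mouse 3 lay among the Runx1-null mice, and the log2 difference was 0.46 (standard error 0.27). A pair of dimmer Farsa probe sets that also passed the filter gave -0.58 and -0.52, and the latter was apart with the Runx1-null mice lower. Farsa therefore has no settled direction, and its difference was -0.21 when all of its probe sets were averaged.

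Of the other cytosolic members, Vars and Tars also had differences above 0.3 with groups that overlapped. The valine enzyme gene Vars, whose product binds elongation factor 1, differed by 0.46 (log2, standard error 0.37), and Runx1-null mouse 3, at 788, was above the 288 to 394 of all other mice. Tars, the threonine enzyme, had a difference of 0.39 (standard error 0.22). Smaller differences were those of Hars (histidine, 0.17), Eprs (a single protein for glutamate and proline, 0.15), Nars (asparagine, 0.14) and Rars (arginine, 0.12).

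A further 4 cytosolic members lay near 0. Kars, the lysine enzyme, which in human cells is also made in a mitochondrial form, was the lowest of them at -0.05 (standard error 0.13), at 2840, 2575 and 3257 in the Runx1-WT mice, against 2613, 2833 and 2876 in the Runx1-null mice. All Runx1-null mice lay within the range of the Runx1-WT mice. Qars, the glutamine enzyme and the brightest cytosolic member, was at 5242, 5158 and 5223 in the Runx1-WT mice, against 5057, 4861 and 5583 in the Runx1-null mice. Its difference was -0.01 (standard error 0.08), an error small enough that a difference as wide as that of Gars lies several standard errors away. Sars (serine) and Wars (tryptophan) had differences of 0.01 (standard error 0.21) and -0.04 (standard error 0.31).

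Grouped by the roles of the enzymes, the differences ran as follows. The 7 measured enzymes of the multisynthetase complex had a median of 0.15, with 5 above 0 and 3 apart (Iars, Mars and Lars). The 12 enzymes outside it had a median of 0.34, with 11 above 0 and 5 apart. The 9 class I genes had a median of 0.31 and the 9 class II genes one of 0.27, with Eprs counted in neither. The 13 genes known as ATF4 targets had a median of 0.33, with 12 above 0 and 7 apart, and the 6 others had a median of 0.14, with 4 above 0 and 1 apart (Farsb). Over all genes tested 44.6% were above 0 and 2.08% were apart with the Runx1-null mice higher. Differences between the groups of enzymes were not tested.

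The 3 scaffold genes of the complex had a median of 0.11. Aimp1 was at 4112, 3969 and 4876 in the Runx1-WT mice, against 4173, 4018 and 4088 in the Runx1-null mice (log2 difference -0.07, standard error 0.10). Aimp2 was at 2757, 2442 and 3207 in the Runx1-WT mice, against 3811, 4062 and 2090 in the Runx1-null mice (0.19, standard error 0.27). Eef1e1 was at 2383, 2512 and 2168 in the Runx1-WT mice, against 2562, 2807 and 2256 in the Runx1-null mice (0.11, standard error 0.14). The groups overlapped for all 3, and Runx1-null mouse 3 was the lowest Runx1-null mouse for Aimp2 and Eef1e1.

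Among the mitochondrial enzymes the 4 with the smallest p were those of asparagine, arginine, cysteine and tyrosine, all at an unadjusted p above 0.05. Nars2 was at 307, 271 and 382 in the Runx1-WT mice, against 377, 403 and 457 in the Runx1-null mice, with a log2 difference of 0.37 (standard error 0.22). Its groups overlapped by the narrow interval between Runx1-null mouse 1 and Runx1-WT mouse 3, and a second probe set gave 0.03. Rars2 was at 976, 890 and 854 in the Runx1-WT mice, against 996, 1224 and 1036 in the Runx1-null mice, apart with a difference of 0.26 (standard error 0.17). Cars2 had the widest mitochondrial difference, 0.47 (standard error 0.31), at 184, 158 and 259 in the Runx1-WT mice, against 257, 209 and 369 in the Runx1-null mice. As for Cars in the cytosol, Runx1-null mouse 3 was the highest. Yars2 was at 713, 737 and 847 in the Runx1-WT mice, against 1043, 847 and 858 in the Runx1-null mice, with a difference of 0.26 (standard error 0.18). Runx1-WT mouse 3 and Runx1-null mouse 2 of Yars2 were equal at this rounding, so that its groups are apart by a hair (846.8 against 846.9).

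The brightest mitochondrial member, Lars2, was the lowest of all members, with a log2 difference of -0.23 (standard error 0.32). It was at 1794, 1699 and 1060 in the Runx1-WT mice, against 855, 1339 and 1757 in the Runx1-null mice, and each genotype held both high and low mice. Sars2, the dimmest, was at 95.7, 87.8 and 140 in the Runx1-WT mice, against 122, 99.0 and 94.3 in the Runx1-null mice, with a difference of -0.01 (standard error 0.31). The other members of the set above 0 were Tars2 (0.28), Iars2 (0.25), Mars2 (0.18), Ears2 (0.13), Aars2 (0.12) and Fars2 (0.01). Below 0 were Pars2 (-0.02), Vars2 (-0.04), Wars2 (-0.04) and Hars2 (-0.10). A second Vars2 probe set above the filter gave 0.58, and the dimmer Lars2 probe sets gave 0.14 and -0.41. Over both compartments 21 members had 2 or more probe sets above the filter, and in 16 all had the same sign. The exceptions were Farsa, Sars, Fars2, Lars2 and Vars2. Mars2 rested on Runx1-null mouse 1, at 627 against 248 to 351 in all others, and its difference was -0.19 without that mouse. The 9 class I genes of this set had a median of 0.18 and the 7 class II genes one of 0.01.

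**Figure D3:**
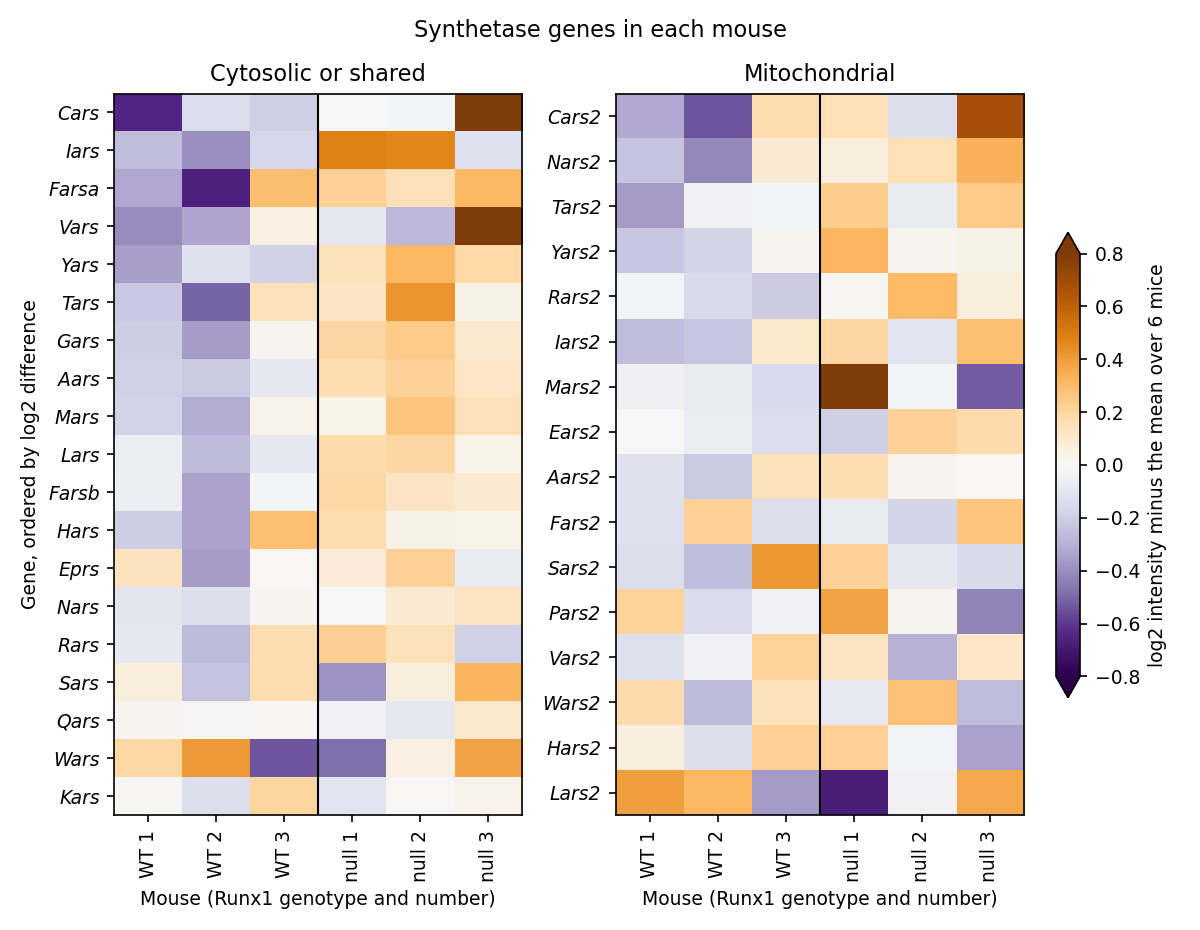
Log2 intensity of each synthetase gene in each mouse, minus that gene's mean over 6 mice (colour scale, with arrows for values beyond its ends); rows are genes ordered by log2 difference and the black line parts Runx1-WT (left) from Runx1-null mice (right). Runx1-WT mouse 2 is the lowest mouse for 13 of 19 cytosolic genes, and Wars and Lars2 are low in Runx1-WT mouse 3 and Runx1-null mouse 1.

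The map of genes by mouse shows which mice carry the differences. Among the 19 cytosolic genes Runx1-WT mouse 2 was the lowest in 13, and the highest was Runx1-null mouse 2 in 7, Runx1-null mouse 3 in 6 and Runx1-null mouse 1 in 3. Among the 16 mitochondrial genes Runx1-WT mouse 2 was the lowest in 5, and a Runx1-null mouse was the highest in 12. Without Runx1-WT mouse 2 the cytosolic median was 0.21, the lowest value on leaving out any mouse.

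Wars and Lars2 were singled out after their values were seen, as genes whose pattern crossed the genotypes. Wars was at 2484, 2883 and 1493 in the Runx1-WT mice, against 1556, 2241 and 2830 in the Runx1-null mice, so that Runx1-WT mouse 3 and Runx1-null mouse 1 were the low pair, as for Lars2. Gatb, a subunit of the amidotransferase that completes glutamine tRNA in mitochondria, was low in the same pair, at 480 and 365 against 1707 to 3465. These 2 mice had the highest means of a list of DNA replication and mitosis genes, 10.98 and 11.25 on the log2 scale. The others were at 8.79 to 10.42. The 10.42 was that of Runx1-WT mouse 1, whose Wars, Lars2 and Gatb were not low, at 2484, 1794 and 3339. The part of proliferation in these values was not tested.

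The animals' numbers in the labels fall into a lower range (4 mice) and an upper range (2 mice), each with both genotypes. The cytosolic median was 0.36 in the lower range and 0.10 between the 2 mice of the upper range, and the mitochondrial median was 0.25 and 0.10. By gene, Yars had log2 differences of 0.47 and 0.36, Aars of 0.39 and 0.20 and Lars of 0.35 and 0.12. Gars had 0.50 in the lower range but 0.08 in the upper, and Iars 0.80 and 0.05. Cars went the other way, with 0.38 and 1.20. The sign differed between the ranges for 16 of 35 members, 8 of them cytosolic. Among these were Tars (0.64 and -0.11), Rars (0.36 and -0.36), Hars (0.38 and -0.25), Eprs (0.26 and -0.06) and Wars (-0.52 and 0.92), with Kars (0.01 and -0.18), Qars (-0.07 and 0.10) and Sars (-0.07 and 0.16) nearer 0. Another 11 cytosolic and 7 mitochondrial members were above 0 in both ranges, which is fixed beforehand for the 10 members that are apart. The upper range holds 1 mouse of each genotype, so these differences have no error.

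Each mouse's mean over the cytosolic list was 10.61, 10.51 and 10.77 for the Runx1-WT mice, against 10.82, 10.90 and 10.95 for the Runx1-null mice (log2). The 2 genotypes were apart, although the highest Runx1-WT mouse and the lowest Runx1-null mouse were closer to each other than to the far mouse of their own group. The mitochondrial means overlapped, at 8.70, 8.63 and 8.80 in the Runx1-WT mice, against 8.88, 8.77 and 8.82 in the Runx1-null mice. Taken relative to the median of all genes tested on the same array, the cytosolic mean was 0.58, 0.65 and 0.77 for the Runx1-WT mice, against 0.86, 0.89 and 1.09 for the Runx1-null mice, again apart.

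**Figure D4:**
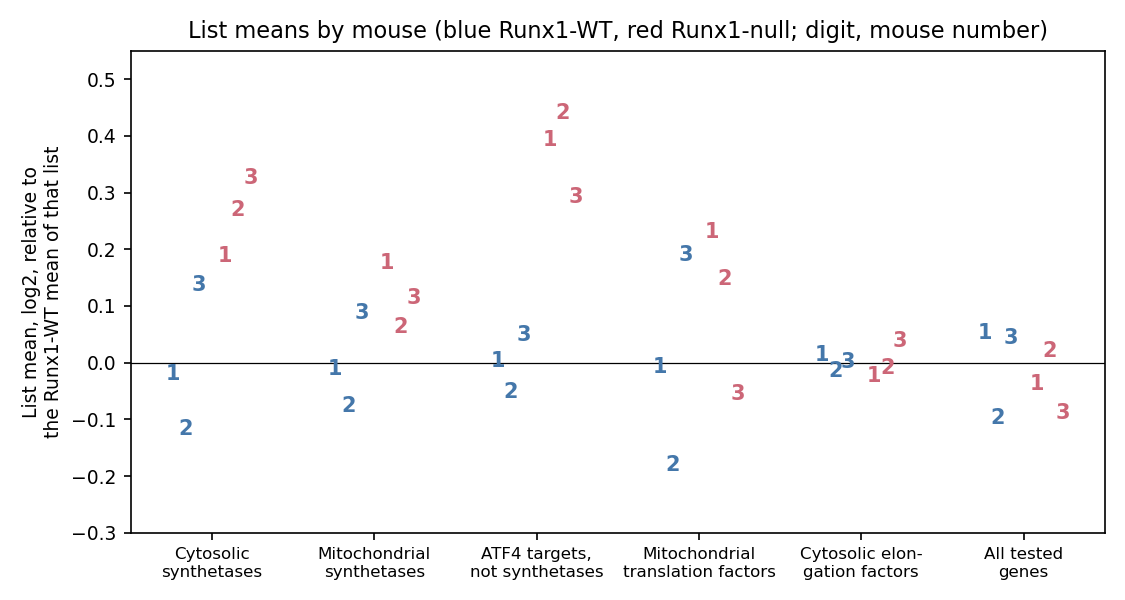
Mean log2 intensity of 5 gene lists and of all genes tested, in each mouse (digits are mouse numbers, blue Runx1-WT and red Runx1-null), minus the Runx1-WT mean of that list. No Runx1-null mouse overlaps a Runx1-WT mouse, and all are higher, for the cytosolic synthetases and for the ATF4 targets that are not synthetases, and the genotypes overlap for the other lists. The list of ATF4 targets includes Atf4 itself.

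Neighbouring steps of translation gave the background to these values in the plot of list means. The 4 measured cytosolic elongation factors, Eef1a1, Eef1b2, Eef1d and Eef2, which deliver charged tRNA and move the ribosome, had log2 differences from -0.02 to 0.01. Their intensities were 8374 to 12309, above those of all synthetases, and whether differences are damped at that brightness was not tested. A list of 11 other genes of tRNA charging held editing enzymes, the mitochondrial amidotransferase, the formyl transferase and the selenocysteine pathway. It also held Tars3, a threonine synthetase gene that is not among the members (log2 difference 0.20). Of the 11, 6 were above 0, with a median of 0.04, and 0 were apart. The 8 mitochondrial translation factors had a median of 0.13, with 6 above 0 and 0 apart. ATF4 targets that are not synthetases, a list that also holds Atf4 itself, lay higher. Of 23 tested, 19 were above 0, with a median of 0.30. There were 9 apart with the Runx1-null mice higher and 8 higher at an unadjusted p under 0.05. Over all genes tested these shares were 44.6%, 2.08% and 0.642%. Atf4 is counted in the 19, the 9 and the 8, with a log2 difference of 0.42 (standard error 0.08). Chac1, which degrades glutathione, differed the most in that list, at 341, 667 and 315 in the Runx1-WT mice, against 1955, 1311 and 1377 in the Runx1-null mice. Both lists were measured in the same mice and are not independent of each other.

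Limits of the arrays bear on all of these values. Array medians ran from 129 to 163 over the Runx1-WT arrays and from 106 to 148 over the Runx1-null arrays, lowest in Runx1-null mouse 3. That mouse also had the widest 3' to 5' difference of the control probe sets, a sign of RNA quality, at 0.61 for Gapdh and 0.74 for Actb (log2), against 0.46 to 0.47 and 0.50 to 0.52 in Runx1-WT mice. The Gapdh value was 0.47 to 0.61 over the Runx1-null mice, without overlap with Runx1-WT, whereas the Actb value, 0.44 to 0.74, overlapped and was lowest of all in Runx1-null mouse 2. Their part in the synthetase values was not tested. Without Runx1-null mouse 3 the cytosolic median was 0.29. The 8 luminal epithelial markers tested were bright in all mice, with list means of 12.86 to 13.01 in Runx1-WT and 12.95 to 13.12 in Runx1-null mice. Among markers of the luminal subsets, 5 of 6 tested mature luminal genes were below 0 (median -0.24), and 3 of them, Cited1 (-1.17), Wnt4 (-0.93) and Foxa1 (-0.31), had an unadjusted p under 0.05. Mature luminal list means were 10.84 to 11.72 in Runx1-WT and 10.54 to 10.90 in Runx1-null mice. The 11.72 was that of Runx1-WT mouse 3, where Tnfsf11 was at 4980. Tnfsf11 was at 9.67 and 6.87 in the other Runx1-WT mice, under the floor, and at 28.8 to 337 in Runx1-null mice. Esr1, Pgr, Foxa1, Cited1 and Wnt4 were each lowest among the Runx1-WT mice in mouse 3. Of 8 tested luminal progenitor genes 6 were above 0 (median 0.17), with list means of 9.79 to 11.40 and 10.57 to 10.91. The 11.40 was again that of Runx1-WT mouse 3, where Csn2 was at 3119, against 20.6 and 4.31 in the other Runx1-WT mice. All 8 stromal markers were below 0, with list means of 9.98 to 10.49 in Runx1-WT and 8.66 to 10.23 in Runx1-null mice and none at 0, and all 5 tested endothelial markers were below 0, with means of 7.47 to 8.10 and 6.83 to 7.28 that did not overlap. In sorted bulk RNA alone, fewer cells of a type and less RNA per cell cannot be told apart. For the luminal subsets the paper also counted cells by flow cytometry. Among YFP+ luminal cells of Runx1L/L females it reported a smaller share of mature luminal cells and a larger share of progenitors. Of 6 tested basal and myoepithelial genes 4 were above 0 and 2 below (median 0.21). Their list means overlapped, at 9.32 to 10.17 in Runx1-WT and 9.17 to 10.61 in Runx1-null mice. The part of basal, stromal and endothelial cells, or of the balance of luminal subsets, in the synthetase values was not tested. Runx1-WT mouse 3 had the highest mean of the 4 tested leukocyte genes, 8.79 against 6.71 to 7.45 in the others. Runx1 itself was at 4082, 3855 and 2015 in the Runx1-WT mice, against 3473, 4820 and 2277 in the Runx1-null mice, with 0 of 6 probe sets apart, and where those probes lie relative to the deleted part was not analysed here.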

How the data were processed

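RNA of sorted YFP+ luminal MECs from 6 mice was amplified (NuGEN Ovation V2) and read on Mouse Genome 430 2.0 arrays of Affymetrix. The deposited table holds linear intensity values for 45101 probe sets, which the authors normalized with dChip, and the dChip version and model are not given in the sources used here. Probe sets were paired with genes by the platform annotation: 34958 had 1 symbol, 932 several and 9211 were unnamed here. The brightest probe set by mean over all arrays stood for a gene, except Gata3, Elf5, Foxa1, Cited1 and Esr1, for which the probe sets named in the paper were used. A gene entered the test if the mean of its probe set reached 73.5, the 40th percentile of probe sets, and limma 3.58.1 under R 4.3.3 was used (lmFit, eBayes with trend, Benjamini-Hochberg over 12152 genes, adjusted p under 0.05), with values floored at the 20th percentile. The code was tested on simulated data. The methods describe littermates, but litters are not known here and are not in the fit. Precision is limited by the number of arrays, which hold no counts.

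Values in each mouse are given for the 8 cytosolic and 4 mitochondrial members with the smallest p, the brightest and dimmest of each compartment, the member farthest from its compartment's median, Farsa and Farsb, and the 3 scaffold genes. The members and lists were chosen with earlier results of these data known, and lists of complex members, classes and ATF4 targets come from general knowledge, so no list was tested. Alternatives were median scaling, quantile normalization, no filter or one at the 60th percentile, adding 5.04 before log2 instead of flooring, the mean of all probe sets, a block for animal number range, the lower range alone, eBayes without trend, the methods' t-test, an adjusted p under 0.1 and leaving out each mouse. The upper range alone was added after seeing the data. Promoter sequences are from RefSeq (GRCm38.p6) and matched 27 of 36 members.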

Additional observations from a re-analysis of the deposited data

How the results depend on the processing

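In every setting with a test, including an adjusted p under 0.1, 0 genes and 0 synthetases were called, and at an unadjusted p under 0.05 limma gave 0 to 9 synthetases: 0 without Runx1-WT mouse 1 or 2 or Runx1-null mouse 1 or 2, 2 without Runx1-null mouse 3, 6 without Runx1-WT mouse 3 and 9 within the lower animal number range alone. The share of all genes at that p was 4.76%, 6.73% and 15.4% in the last 3 settings, against 1.93% with all mice in the fit used above. The count with all mice was 3 in that fit, 7 without a filter (2.94% of all genes) and 1 after median scaling (1.01%). It was 4 after quantile normalization (1.77%), with the mean of all probe sets (2.21%) and with eBayes without trend (2.32%). The methods' t-test gave 335 genes and 4 synthetases (Aars, Gars, Lars and Yars) at its threshold, and 0 after Benjamini-Hochberg. The cytosolic median was 0.21 to 0.35 on leaving out 1 mouse, 0.36 after median scaling and 0.10 in the upper range of animal numbers alone, an alternative added after seeing the data. The mitochondrial median was 0.06 to 0.16 on leaving out 1 mouse, 0.21 with the filter at the 60th percentile (10 genes), 0.20 after quantile normalization, 0.22 after median scaling and 0.25 in the lower range alone. Fewer mice can only add genes that are apart, by construction. Apart between the genotypes were 10 to 19 synthetases on leaving out 1 mouse. The 19, all higher, were without Runx1-WT mouse 3, when 12.4% of all genes were apart and higher and 13.3% lower. Without Runx1-null mouse 3, 11 were higher and 1 lower, against 9.69% and 10.2% of all genes. In the lower range alone 25 were apart, 22 higher and 3 lower, against 26.1% and 24.5% of all genes. After median scaling 4 were apart (Aars, Iars, Lars and Yars), with 2.29% of all genes apart and higher and 1.17% lower, and after quantile normalization 10, with 2.84% and 2.59%. Those 10 were not the same set: Cars and Yars2 were no longer apart, and Nars and Tars were. Median scaling put 19 of 19 cytosolic members above 0, Kars, Qars and Wars included, and 64.7% of all genes, whose median became 0.07, while quantile normalization put 53.6% above 0. Farsa was reversed, at -0.21, with the mean of all its probe sets. Over 15 settings 22 members held their sign, 14 of them cytosolic, and of the 13 that changed it 12 had a difference smaller than its standard error. In the upper range alone 5 of the 22 turned below 0 (Eprs, Hars, Rars, Tars and Aars2), which left 17, 10 of them cytosolic. No paired analysis was possible because the labels do not say which mice are littermates. With the animal number range as a block in the fit, 3 synthetases and 2.51% of all genes had an unadjusted p under 0.05. The number of arrays limits what could be called.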
